A study of Homo sapiens with 12 samples.

Results

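The human synovial sarcoma lines SYO-1 and Fuji were compared gene by gene, on the 3 SYO-1 arrays and the 3 Fuji arrays among the 12 arrays of the series. Both lines carry the SS18-SSX2 fusion according to the study's list of cell lines. Each line was cultured for 24 h with 0 (vehicle), 0.3 or 3 µM ZSTK474, an inhibitor of phosphoinositide 3-kinase (PI3K), and 1 Affymetrix array was hybridised for each line and dose. The other 6 arrays hold the lines Aska-SS and Yamato-SS, which carry SS18-SSX1, at the same 3 doses. Each group is a single established line, so a difference belongs to SYO-1 against Fuji and not to any class of tumour. The 3 arrays of a line were treated with different doses and are not repeated cultures. The fit on all 12 arrays removed the dose effect shared by the lines. The p-values thus measure a line difference against how line differences varied over the doses, pooled over all lines of the series. They do not measure it against the spread between cultures.

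Synovial sarcoma is a soft tissue cancer driven by the joining of SS18, a subunit of the BAF (SWI/SNF) chromatin remodelling complex, to an SSX protein. The fusion protein acts on chromatin at genes that are otherwise silenced by Polycomb complexes, many of them developmental regulators. The tumours can hold spindle, mesenchyme-like cells, gland-forming epithelial cells or both, and they often express neural, Wnt pathway and cancer-testis antigen genes.

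Of 13625 genes tested, 5976 passed the test for a line difference (Benjamini-Hochberg adjusted p under 0.05 in limma), which is 43.9% of them. Of these, 2899 (21.3%) were higher in SYO-1 and 3077 (22.6%) were lower in SYO-1. A stricter set passed the test and differed by at least 2-fold in the same direction at each of the 3 doses, and it held 652 genes higher in SYO-1 (4.79%) and 1013 genes lower in SYO-1 (7.43%), in all 1665 genes or 12.2%. The words higher and lower below refer to this set unless stated otherwise. At least 4-fold at every dose separated 317 genes upwards and 455 downwards in SYO-1, and 82 and 130 genes were at least 16-fold apart at every dose. At single doses, 1273 genes were at least 2-fold higher in SYO-1 at 0 µM, 1530 at 0.3 µM and 1530 at 3 µM, and 1664, 1829 and 1783 were at least 2-fold lower. Across genes, the difference at 0 µM had a Pearson r of 0.81 with that at 3 µM and of 0.842 with that at 0.3 µM, a description over genes of these arrays. The median difference over all genes was -0.00219 on the log2 scale.

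**Figure D1:**
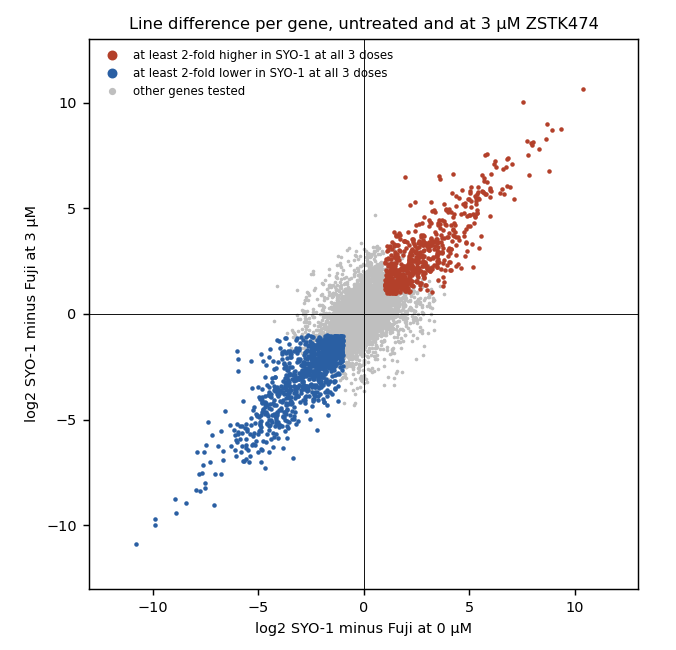
Difference between SYO-1 and Fuji (log2, SYO-1 minus Fuji) for each of the 13625 genes tested, without drug on the x axis and at 3 µM ZSTK474 on the y axis. The 652 genes higher in SYO-1 (red) and the 1013 lower in SYO-1 (blue) lie along one diagonal, and the other genes tested are grey.

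Levels are given as quantile-normalized array signals, in the order 0, 0.3 and 3 µM. Where all 3 arrays of one line lay below 71.2, the median signal of all probe sets, the deposited table has no detection call to show that the gene was present there. The fold is then given as a lower bound against that median. Signals under 12.1 were raised to 12.1 in the fit only. For ALCAM, AXL, BMF, COL4A1, COL4A2, CYP1B1, DSP, FBXO32, GSTM1, HOXC12, IGF1R, IRS1, LAMA1, LTBP2, MDK, NES, SPOCK1 and TIMP1, only 1 or 2 arrays of the dimmer line lay above the median, so their fitted differences rest in part on signals not shown to be above background. Among the genes higher in SYO-1, 341 lay above the median on all 6 arrays and 210 lay below it on the 3 Fuji arrays. Among the genes lower in SYO-1, 490 lay above it on all 6 arrays and 337 lay below it on the 3 SYO-1 arrays.

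The largest measured excess in SYO-1 was that of COL6A3, a chain of the microfibrillar collagen VI. Its signal was 25042, 26102 and 26027 in SYO-1, against 257, 271 and 222 in Fuji, a log2 difference of 6.69 ± 0.14 (SE) with an adjusted p of 1.36e-11. The 2 sets of 3 arrays did not overlap, which is no further result for a gene chosen as the largest difference. PAX3, a transcription factor of neural crest and muscle precursors, had 5060, 6321 and 7026 in SYO-1, against 98.6, 97.0 and 80.9 in Fuji (6.05 ± 0.21). SDC2, a cell-surface heparan sulphate proteoglycan, had 15878, 15878 and 14509 in SYO-1, against 313, 448 and 264 in Fuji. CD24, a small glycosylated surface protein, and LOX, the lysyl oxidase that cross-links collagen, were also among the 12 largest, with log2 differences of 5.15 ± 0.19 and 4.92 ± 0.23. So were the extracellular hemicentin HMCN1, the centrosomal CEP112, ARHGAP28, TMEM47, FLRT2, the G protein signalling regulator RGS2, and GSG1L. All 12 had higher signals on each SYO-1 array than on any Fuji array, as their choice by size of difference makes likely.

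The largest measured deficit in SYO-1 was that of ANXA1, annexin A1, a phospholipid-binding protein of inflammation control. It had 126, 132 and 92.5 in SYO-1, against 42604, 42407 and 45549 in Fuji, a log2 difference of -8.56 ± 0.27 (adjusted p = 2.66e-10). Both fibril-forming collagen genes in this group were near the top of the scale in Fuji. COL5A2 had 182, 263 and 327 in SYO-1, against 35138, 43255 and 45778 in Fuji (-7.36 ± 0.10), and COL3A1 had 533, 784 and 784, against 32824, 36653 and 37575 in Fuji (-5.69 ± 0.18). SPRY2, a feedback inhibitor of receptor tyrosine kinase signalling, had 405, 348 and 359 in SYO-1, against 15445, 19829 and 25682 in Fuji. The others were the corepressor RUNX1T1, the ephrin receptor EPHA5, KANK4, the POU transcription factor POU4F2, the neurofilament NEFM, TMTC2, the actin-sequestering thymosin TMSB4X and the matrix glycoprotein TNC, with log2 differences between -6.27 and -5.57. In these 12 genes, chosen in the same way, no SYO-1 signal reached the lowest Fuji signal, which is no further result.

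**Figure D2:**
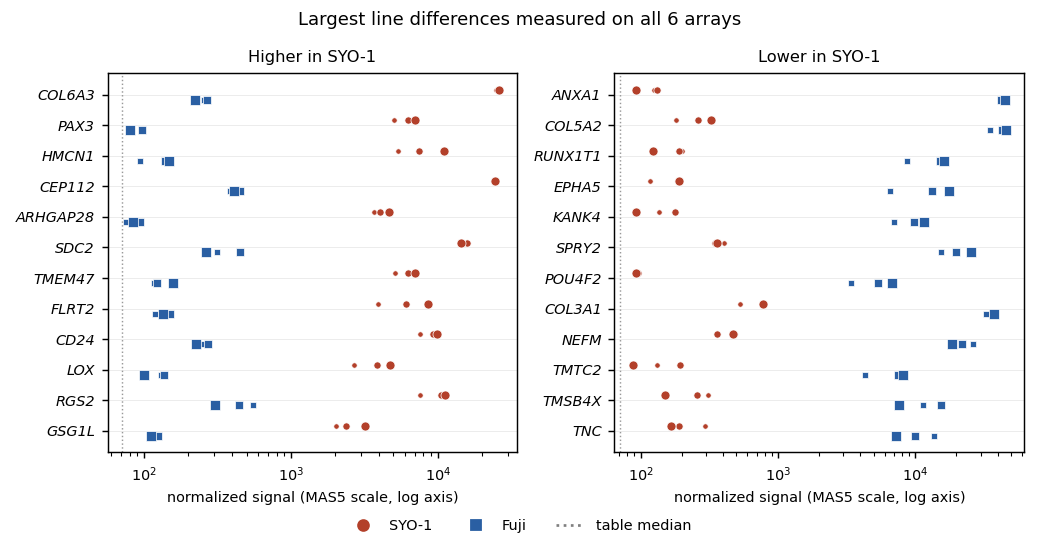
Normalized signals (log axis) of the 12 largest differences in each direction among genes above the table median (71.2, dotted line) on all 6 arrays, with SYO-1 as red circles and Fuji as blue squares, and small, medium and large symbols for 0, 0.3 and 3 µM. ANXA1 lies at 92.5 to 132 in SYO-1 and 42407 to 45549 in Fuji, and COL6A3 at 25042 to 26102 in SYO-1 and 222 to 271 in Fuji.

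Several genes were bright in one line and below the table median on all 3 arrays of the other. PRRX1, a homeobox factor of limb and craniofacial mesenchyme, had 16256, 18381 and 19476 in SYO-1, against 8.81, 5.81 and 5.61 in Fuji, at least 253-fold higher in SYO-1 (adjusted p = 2.14e-13). IFIH1, the cytosolic double-stranded RNA sensor MDA5, was at least 167-fold higher. The homeobox factor MEIS2, the ephrin receptor EPHA7, the vitamin D hydroxylase CYP24A1, the growth factor PDGFC, LIX1 and NAV3 were at least 136-, 132.8-, 107-, 100-, 90.5- and 78.9-fold higher in SYO-1, in that order. On the other side stood ALDH1A1, a retinaldehyde dehydrogenase that makes retinoic acid, with 5.77, 5.07 and 1.68 in SYO-1, against 21595, 25950 and 22861 in Fuji, at least 329-fold lower in SYO-1 (adjusted p = 1.38e-13). OGFRL1 was at least 287-fold lower in SYO-1, and the adhesion protein FLRT3 at least 209-fold. The ubiquitin ligase CBLB, the vasopressin receptor AVPR1A and the angiotensin receptor AGTR1 were at least 160-, 113- and 112-fold lower. The cancer-testis antigen genes MAGEA4 and CTAG2 completed the group, at least 184- and 165-fold lower in SYO-1.

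Wnt pathway genes stood on both sides. Of 44 tested genes of the list, 12 were higher and 4 lower in SYO-1, together 36.4% against 12.2% of all genes. The median of the 44 was 0.0113 (0 with genes below the table median in one line at their bounds), beside -0.00219 over all genes, since 17 did not pass the test and the rest were divided. AXIN2, a scaffold of the β-catenin destruction complex that is itself a widely used transcriptional target of β-catenin, had 10420, 12764 and 15970 in SYO-1, against 778, 1112 and 1011 in Fuji (3.75 ± 0.11, adjusted p = 1.93e-10). ZNRF3, a ubiquitin ligase that removes Frizzled receptors and is another β-catenin target, had 3355, 3232 and 3253 in SYO-1, against 570, 654 and 559 in Fuji. LEF1, a DNA-binding partner of β-catenin, had 5818, 6644 and 7683 in SYO-1, against 1309, 1382 and 1390 in Fuji (2.29 ± 0.14). These 3 genes were taken from the set 2-fold apart at every dose, so their separate signals are no further result.

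Further members were picked with their values known and say nothing of the list as a whole. Higher in SYO-1 were the dishevelled antagonist NKD2 (1.72 ± 0.24), the Wnt deacylase NOTUM (1.26 ± 0.22), the transcription factor SP5 (at least 5.83-fold), NKD1 (at least 3.79-fold) and the R-spondin receptor LGR5 (at least 2.02-fold). Among receptors, FZD10 had 13313, 14276 and 14100 in SYO-1, against 746, 1124 and 1270 in Fuji (3.77 ± 0.29). FZD4 went the other way, with 462, 482 and 360 in SYO-1, against 1130, 1564 and 1819 in Fuji. Of ligands, WNT16 was higher in SYO-1 by 3.00 ± 0.27. The genes of the secreted antagonists SFRP1 and DKK2 were both lower in SYO-1. SFRP1, which binds Wnt proteins, had 110, 112 and 74.7 in SYO-1, against 3273, 4570 and 3481 in Fuji (-5.26 ± 0.30), and DKK2, a ligand of Wnt co-receptors, was lower by 1.74 ± 0.16 on the log2 scale.

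Patterning transcription factors, which set regional identity in the embryo, had 26 genes higher and 10 lower in SYO-1 among 75 tested. This was 48% in all, beside 12.2% of all genes. Higher in SYO-1 beside PAX3 and MEIS2 were the neighbouring Iroquois genes IRX5 and IRX3, with log2 differences of 3.53 ± 0.16 and 3.32 ± 0.17. IRX3 had 10429, 15198 and 12996 in SYO-1, against 1488, 1412 and 989 in Fuji. EYA1, DLX6 and MSX2, used in cranial and limb development, were higher too, EYA1 by at least 13.4-fold, DLX6 by at least 13.6-fold and MSX2 by 3.09 ± 0.18 on the log2 scale. TBX2, a T-box repressor, was the lower one of the 8 smallest p-values, with 294, 244 and 192 in SYO-1, against 3373, 3719 and 5356 in Fuji (-4.08 ± 0.21). The cardiac and forelimb factors NKX2-5 and TBX5, named after their values were seen, were at least 10.8- and 4.26-fold lower in SYO-1.

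HOX genes, which mark position along the body axis and the limb, leaned to lower levels in SYO-1. Of 27 tested, 2 were higher and 7 lower by at least 2-fold at all doses, and by the test alone 2 were higher and 21 lower. Over all genes, 4.79% were higher and 7.43% lower by at least 2-fold at all doses. By the test alone the shares of all genes were 21.3% and 22.6%. Their median difference was -0.955, and it stayed between -1.06 and -0.894 in every alternative processing tried. HOXD1 had 927, 962 and 862 in SYO-1, against 10782, 12083 and 13796 in Fuji (-3.73 ± 0.16, adjusted p = 3.77e-09). HOXD4 had 396, 451 and 511 in SYO-1, against 1925, 3534 and 5314 in Fuji, and HOXD12 was at least 2.79-fold lower in SYO-1. HOXB genes showed smaller deficits: HOXB7 by -1.32 ± 0.14, HOXB6 by -1.42 ± 0.18 and HOXB8 by -1.67 ± 0.23. HOXA2 ran against most of the others and was at least 4.55-fold higher in SYO-1, and HOXC12 had 688, 863 and 808 in SYO-1, against 59.7, 168 and 89.6 in Fuji.

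Collagen genes were one of the most divided groups. Of 33 tested, 5 were higher and 15 lower in SYO-1, 60.6% of the list beside 12.2% of all genes. The network collagen of basement membranes was low in SYO-1: COL4A1 had 95.6, 57.4 and 57.3 in SYO-1, against 1700, 2264 and 2028 in Fuji (-4.87 ± 0.19), and its partner chain COL4A2 had 85.5, 91.7 and 53.7, against 1418, 1546 and 1839 in Fuji. COL1A1, the main chain of collagen I, had 2580, 3166 and 2069 in SYO-1, against 16688, 21036 and 21698 in Fuji (-2.94 ± 0.13). COL12A1, a fibril-associated collagen, was lower by 4.08 ± 0.12 on the log2 scale and COL8A1 by 2.23 ± 0.11. Beside COL6A3, the genes higher in SYO-1 were COL26A1, COL23A1, COL2A1 and COL21A1. These 4 fell outside the ranking by p and were chosen with their values known. COL26A1 had 3007, 3417 and 1967 in SYO-1, against 149, 156 and 132 in Fuji.

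**Figure D3:**
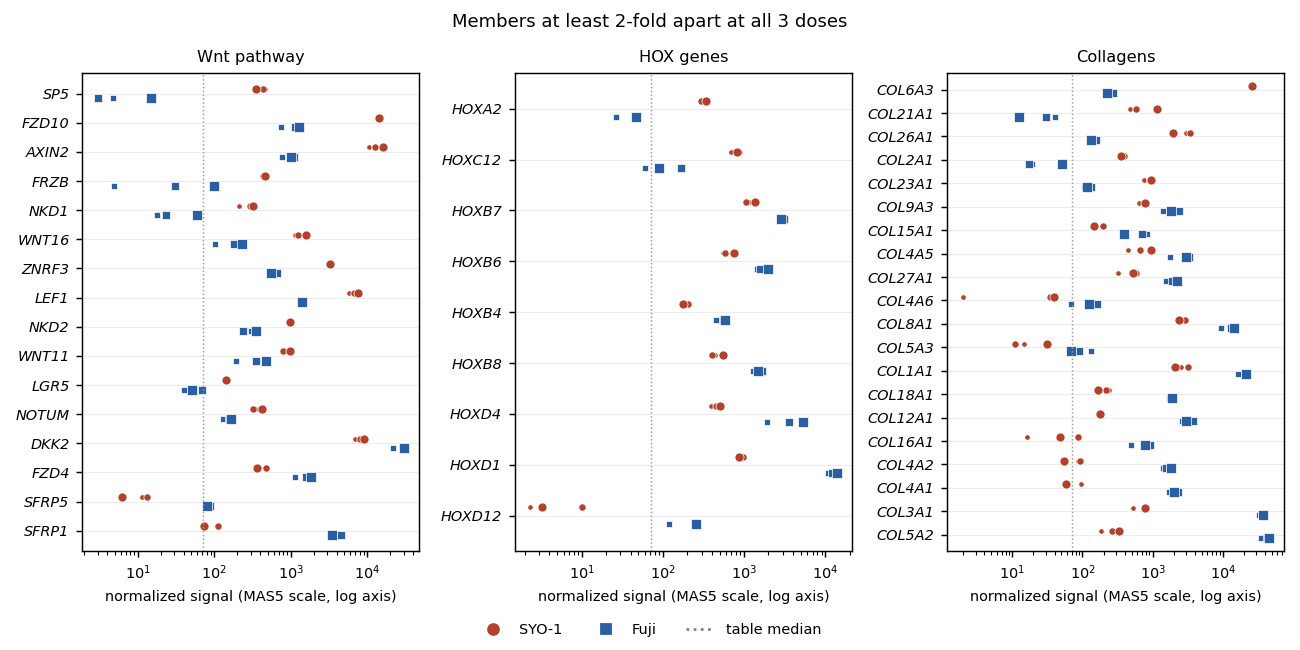
Normalized signals (log axis) of the Wnt pathway, HOX and collagen genes at least 2-fold apart at all 3 doses, ordered from higher to lower in SYO-1, with SYO-1 as red circles, Fuji as blue squares, symbol size growing with dose and the table median (71.2) dotted. Of the genes shown, 12 of 16 Wnt genes lie to the right in SYO-1, against 2 of 9 HOX genes and 5 of 20 collagens.

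Among 60 matrix proteins and proteases, 10 were higher and 19 lower in SYO-1 (48.3% of the list), beside 652 higher and 1013 lower over all genes. TIMP1, an inhibitor of matrix metalloproteinases, had 98.6, 70.3 and 33.6 in SYO-1, against 21193, 16227 and 11139 in Fuji. Only 1 of its SYO-1 arrays lay above the table median, and with the floor at that median the log2 difference was -7.62. TIMP3, a matrix-bound member of the same family, had the opposite order, with 2149, 2211 and 1979 in SYO-1, against 125, 148 and 106 in Fuji (4.08 ± 0.17). SPARC, a collagen-binding matricellular protein, SPOCK1 and the protease ADAMTS1 were lower in SYO-1 by 3.15 ± 0.11, 4.56 ± 0.18 and 4.45 ± 0.15 on the log2 scale. Of 25 integrins and laminins, 2 were higher and 8 lower in SYO-1 (40%, beside 12.2% of all genes). The lower ones included laminin chains and a laminin receptor chain: LAMA4 (-4.32 ± 0.13), LAMC1 (-1.52 ± 0.09), LAMB2 (-2.16 ± 0.15), LAMA5 (-2.01 ± 0.16) and ITGA6 (-2.22 ± 0.26). LAMA1, the laminin chain of early embryos, had 475, 418 and 290 in SYO-1, against 87.0, 44.7 and 37.9 in Fuji.

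Neural genes were lower in SYO-1 in 12 of 25 tested and higher in 3, 60% of the list beside 12.2% of all genes. Neurofilament genes, which encode the intermediate filaments of axons, were prominent. NEFL had 1940, 1608 and 1147 in SYO-1, against 34553, 35641 and 35372 in Fuji (-4.52 ± 0.29), and NEFM had 484, 363 and 473, against 26394, 22093 and 18594 in Fuji. NES, encoding nestin of neural progenitors, had 78.4, 28.7 and 53.9 in SYO-1, against 7996, 8507 and 6537 in Fuji, with 1 SYO-1 array above the table median. With the floor at that median the log2 difference of NES was -6.70. The endoplasmic reticulum protein RTN1 was lower by 4.52 ± 0.16 on the log2 scale. NPTX1, a synaptic pentraxin, was among the 3 higher genes, with 3227, 4646 and 5642 in SYO-1, against 147, 323 and 451 in Fuji. Fold changes of this list depend on low signals: its median of -1.43 became -0.629 with genes below the table median in one line set to their bounds.

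Epithelial and mesenchymal genes were each found on both sides. Of 44 listed epithelial genes, 40 were on the array. The 23 tested were above the table median in at least 3 of the 12 arrays, whichever the line. Of these, 2 were higher and 4 lower in SYO-1, 26.1% beside 12.2% of all genes. CDH3, encoding P-cadherin, was at least 51.8-fold lower in SYO-1, with 4.33, 19.1 and 7.80, against 2982, 4320 and 3904 in Fuji. DSP, encoding the desmosomal plaque protein desmoplakin, had 1461, 1584 and 2260 in SYO-1, against 60.9, 91.6 and 83.6 in Fuji (4.48 ± 0.40), while JUP, encoding the desmosomal plaque protein plakoglobin, was lower by 2.37 ± 0.11 on the log2 scale. CDH1, which encodes E-cadherin, was below the table median on 5 of the 6 arrays, with 29.5, 4.19 and 4.17 in SYO-1 and 28.0, 57.5 and 103 in Fuji. Of 26 mesenchymal genes, 4 were higher and 6 lower in SYO-1, 38.5% of the list. TWIST1, a basic helix-loop-helix factor of mesenchyme, was at least 53.1-fold higher beside PRRX1. The lower ones included TNC and SPARC, given above, TAGLN (-4.37 ± 0.32) and FBN1 (-2.57 ± 0.15). BGN was at least 14.7-fold lower in SYO-1. The shared filament gene VIM had 32659, 34621 and 32824 in SYO-1, against 34917, 35138 and 30977 in Fuji, a difference of -0.01 ± 0.07.

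Of the 12 tested markers of synovial sarcoma, CTAG2 was below the table median on all 3 SYO-1 arrays. TLE1, a corepressor used in the diagnosis, had 15589, 16780 and 17817 in SYO-1, against 13089, 18268 and 22488 in Fuji, a difference of -0.07 ± 0.12 whose adjusted p was 0.676. SALL2 and EFNB3 missed the threshold too, at adjusted p of 0.0606 and 0.0861. Of the 12 markers, TNFRSF21 and FZD10 were higher and CTAG2 and CD99 lower in SYO-1, 33.3% beside 12.2% of all genes. CD99, a surface glycoprotein, had 5138, 5683 and 5147 in SYO-1, against 10704, 12825 and 11824 in Fuji (-1.14 ± 0.08). Of the markers of other cell types, 10 of 12 leukocyte genes and all 12 endothelial genes were on the array. Of these, 4 leukocyte genes and 6 endothelial genes had enough signal to be tested. None of the 4 leukocyte genes passed the test, and the brightest of them, CD79A, reached 201 in SYO-1 and 275 in Fuji. CDH5, a defining gene of endothelium, was below the table median on all 6 arrays (at most 23.5). ERG and KDR of the endothelial list were higher in SYO-1: ERG, an ETS factor, had 1732, 1973 and 1937 in SYO-1, against 132, 134 and 160 in Fuji. Fewer cells with a transcript and less of it per cell cannot be told apart in such bulk samples.

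Adhesion genes gave 3 higher and 8 lower among 37, 29.7% of the list beside 12.2% of all genes. ALCAM, an immunoglobulin superfamily adhesion molecule, had 53.7, 97.2 and 127 in SYO-1, against 3425, 3597 and 4744 in Fuji (-5.48 ± 0.19). NCAM1, the neural cell adhesion molecule, was lower by 2.24 ± 0.10 on the log2 scale and the hyaluronan receptor CD44 by 1.39 ± 0.14. The protocadherin PCDH7 was at least 10.8-fold higher in SYO-1.

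Receptor tyrosine kinases, the entry points to PI3K, were divided, with 6 higher and 7 lower in SYO-1 among 40. This was 32.5% of the list, beside 12.2% of all genes. Ephrin receptors stood on both sides: EPHA7 was at least 132.8-fold higher in SYO-1, EPHA4 was at least 12.45-fold lower, and EPHA5 had 117, 186 and 191 in SYO-1, against 6580, 13254 and 17729 in Fuji. DDR2, a receptor for fibrillar collagens, had 115, 132.7 and 137 in SYO-1, against 2746, 4713 and 5104 in Fuji (-4.98 ± 0.13), on the same side as most collagen genes. AXL, the receptor of GAS6, was lower by 4.31 ± 0.24 on the log2 scale, and ROR1, a Wnt-binding receptor, by 2.32 ± 0.13. FGFR2 was higher in SYO-1, with 1563, 1766 and 1828, against 319, 466 and 363 in Fuji (2.18 ± 0.17). Of its 5 probe sets past the filter, only 4 had this direction. Of 40 ligand genes, 8 were higher and 5 lower, also 32.5% of the list. Beside PDGFC the higher ones included the heparin-binding growth factor MDK, with 5351, 5236 and 4412 in SYO-1, against 3.75, 78.7 and 40.2 in Fuji, the neurotrophin BDNF (at least 8.12-fold) and the KIT ligand KITLG (2.38 ± 0.18). Of the 3 Fuji arrays for MDK, 1 lay above the table median.

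The insulin-like growth factor (IGF) axis differed in 11 of its 20 tested genes, 6 higher and 5 lower in SYO-1. This was 55% of the list, beside 12.2% of all genes, and the list median was 0.00203. Insulin receptor substrates carry the signal of IGF and insulin receptors to PI3K. IRS1 had 4361, 5353 and 7399 in SYO-1, against 69.9, 63.3 and 118 in Fuji (6.11 ± 0.19, adjusted p = 2.17e-10), and IRS4 had 968, 976 and 1105 in SYO-1, against 24589, 27150 and 29040 in Fuji (-4.73 ± 0.08, adjusted p = 1.85e-12). IRS2 was lower in SYO-1 too, with 261, 570 and 1521, against 901, 1389 and 4817 in Fuji (-1.58 ± 0.36), a call lost without the dose term (adjusted p = 0.0868). The receptor gene IGF1R had 819, 1486 and 2351 in SYO-1, against 33.2, 93.5 and 522 in Fuji (3.59 ± 0.44), so its signal was higher with dose in both lines. IGF2BP1 and IGF2BP3, encoding RNA-binding proteins of fetal tissue, were higher in SYO-1, by at least 9.21-fold and by 2.23 ± 0.22 on the log2 scale. Binding proteins that sequester IGF were divided. IGFBP2 had 1121, 1034 and 651 in SYO-1, against 7494, 7661 and 4911 in Fuji (-2.85 ± 0.12), and IGFBP6 was lower by 1.45 ± 0.17 on the log2 scale. IGFBP3, named after its values were seen, was higher by 1.57 ± 0.27. Of 35 core PI3K, Akt and mTOR components, 3 differed at all doses (8.57%, beside 12.2% of all genes), with 6 without the SYO-1 array at 3 µM and 5 without the Fuji array at 3 µM, when all genes gave 1913 and 1923. INPP4B, a phosphoinositide phosphatase, and EIF4EBP1, a translation repressor, were higher in SYO-1 by 2.12 ± 0.15 and 1.59 ± 0.17, and the mTOR inhibitor DEPTOR was lower by 1.98 ± 0.39 on the log2 scale.

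In the TGF-β and BMP pathway, 6 genes were higher and 10 lower in SYO-1 among 44, 36.4% of the list beside 12.2% of all genes. The bone morphogenetic protein ligands BMP4 and BMP5 were higher, BMP4 with 5236, 6118 and 7208 in SYO-1, against 364, 428 and 381 in Fuji (3.98 ± 0.25), and so was their target ID4 (2.54 ± 0.10). TGFBR2, the type II receptor of TGF-β, had 113, 106 and 82.7 in SYO-1, against 585, 702 and 646 in Fuji (-2.69 ± 0.17), and the latent TGF-β binding protein LTBP2 was lower by 4.01 ± 0.23 on the log2 scale. Of 34 Notch and Hedgehog genes, 3 were higher and 5 lower, 23.5% of the list. The Notch ligand JAG1 was higher in SYO-1 by 1.62 ± 0.11, and the Hedgehog co-receptor BOC was lower by 3.20 ± 0.28 on the log2 scale.

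Genes of apoptosis differed at several steps. Among 16 tested BCL-2 family genes, 1 was higher and 4 lower in SYO-1, 31.2% beside 12.2% of all genes. BBC3, which encodes PUMA, is not among these 16 and has no value here. The anti-apoptotic MCL1 had 5301, 5224 and 4711 in SYO-1, against 11466, 12163 and 12327 in Fuji (-1.24 ± 0.08, adjusted p = 9.51e-08). The pro-apoptotic BID, which links death receptors to mitochondria, had 1337, 1229 and 775 in SYO-1, against 4616, 4689 and 4132 in Fuji (-2.04 ± 0.20), and BOK and BMF were lower by 1.77 ± 0.18 and 1.66 ± 0.37 on the log2 scale. PMAIP1, encoding the BH3-only protein NOXA that binds MCL1, had 1798, 1320 and 800 in SYO-1, against 865, 247 and 188 in Fuji (1.85 ± 0.24). The calls of BMF and PMAIP1 were lost without the dose term (adjusted p = 0.143 and 0.0626). BCL2L11, encoding the BH3-only protein BIM, had 858, 1100 and 1572 in SYO-1, against 790, 1221 and 1931 in Fuji, and its difference of -0.11 ± 0.17 was within the error (adjusted p = 0.658). BCL2 differed by -0.84 ± 0.22 and BCL2L1 by 0.89 ± 0.17, both past the test but under 2-fold on average. With the mean of its probe sets BCL2 differed by -0.37 and lost its call (adjusted p = 0.186).

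Among caspases, inhibitor of apoptosis proteins and death receptors, 5 genes were higher and 3 lower in SYO-1 of 24. This was 33.3% of the list, beside 12.2% of all genes. CASP8, the initiator caspase of death receptors, was at least 19.1-fold lower in SYO-1, with 58.1, 65.4 and 47.3, against 1014, 1398 and 1772 in Fuji. TNFRSF1A, the main TNF receptor, and the mitochondrial-pathway initiator CASP9 were lower by 2.57 ± 0.13 and 1.42 ± 0.14 on the log2 scale. TNFRSF10D, a decoy receptor for TRAIL, had 5849, 5093 and 5009 in SYO-1, against 7.83, 20.1 and 6.66 in Fuji, at least 74.5-fold higher in SYO-1. The death receptor TNFRSF21 had 6166, 6176 and 6111 in SYO-1, against 504, 453 and 360 in Fuji (3.82 ± 0.13), and FAS was higher by 1.29 ± 0.16.

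Cancer-testis antigen genes are silent in most adult tissues outside the testis. Of 49 listed, 31 had a probe set with 1 gene symbol, and only 10 of the 31 had enough signal to be tested. Of the 10, 1 was higher and 4 lower in SYO-1, 50% beside 12.2% of all genes. MAGEA4 had 17.6, 10.7 and 11.8 in SYO-1, against 16463, 13600 and 10086 in Fuji, and CTAG2 had 3.61, 4.99 and 10.2, against 11399, 11713 and 12128 in Fuji. PIWIL1, which binds piRNAs in germ cells, had 1122, 1300 and 1064 in SYO-1, against 385, 140 and 78.7 in Fuji (2.84 ± 0.40). Probe sets of such multigene families may also bind transcripts of close relatives. Imprinted genes were lower in 5 and higher in 1 of 19, 31.6% of the list. NDN, encoding the growth suppressor necdin, and PEG3 were at least 29.1- and 13.7-fold lower in SYO-1.

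Interferon-stimulated genes split, with 7 higher and 3 lower in SYO-1 among 32, 31.2% of the list beside 12.2% of all genes. IFIH1 had 10824, 11688 and 13243 in SYO-1, against 42.0, 31.7 and 47.3 in Fuji, and the antiviral GTPase gene MX2 was at least 18.9-fold higher. IFIT1, which binds viral RNA, had 671, 734 and 965 in SYO-1, against 7575, 9082 and 6966 in Fuji (-3.33 ± 0.17). Antigen presentation genes gave 1 higher and 4 lower of 27, 18.5% of the list. PSMB8, an immunoproteasome subunit, was at least 10.4-fold lower in SYO-1, with 8.79, 3.11 and 3.34, against 545, 712 and 1050 in Fuji, and HLA-F was lower by 1.65 ± 0.12 on the log2 scale.

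Of 38 genes of aldehyde, retinoid and xenobiotic metabolism, 4 were higher and 4 lower in SYO-1, 21.1% beside 12.2% of all genes. Beside ALDH1A1, the retinoic acid-making ALDH1A2 had 99.9, 137 and 118 in SYO-1, against 1395, 961 and 685 in Fuji (-3.05 ± 0.24), and RARB, a retinoic acid receptor that is itself induced by retinoic acid, had 493, 219 and 325, against 2090, 3616 and 4533 in Fuji (-3.31 ± 0.31). CYP1B1, a cytochrome P450, was higher in SYO-1 by 2.71 ± 0.16, and so were the glutathione transferase genes GSTM1, GSTM2 and GSTM4, whose sequences are close to one another.

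None of 34 cytosolic ribosomal protein genes and none of 27 proteasome subunits were 2-fold apart at all doses, although 3 and 9 of them passed the test. Over all genes, 12.2% were 2-fold apart at all doses and 43.9% passed the test. Of 46 SS18, BAF and Polycomb genes, 2 were higher and 2 lower (8.7%, beside 12.2% of all genes). Without the untreated SYO-1 array or without the untreated Fuji array 7 in all were called, when all genes gave 2206 and 2220. BCL11A, a BAF-associated zinc finger factor, was at least 22.3-fold higher in SYO-1, and the BAF ATPase gene SMARCA2 had 533, 715 and 789 in SYO-1, against 1104, 1868 and 2024 in Fuji (-1.26 ± 0.13). SS18 itself, named after its values were seen, had 997, 1021 and 1092 in SYO-1, against 954, 729 and 697 in Fuji (0.40 ± 0.13).

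**Figure D4:**
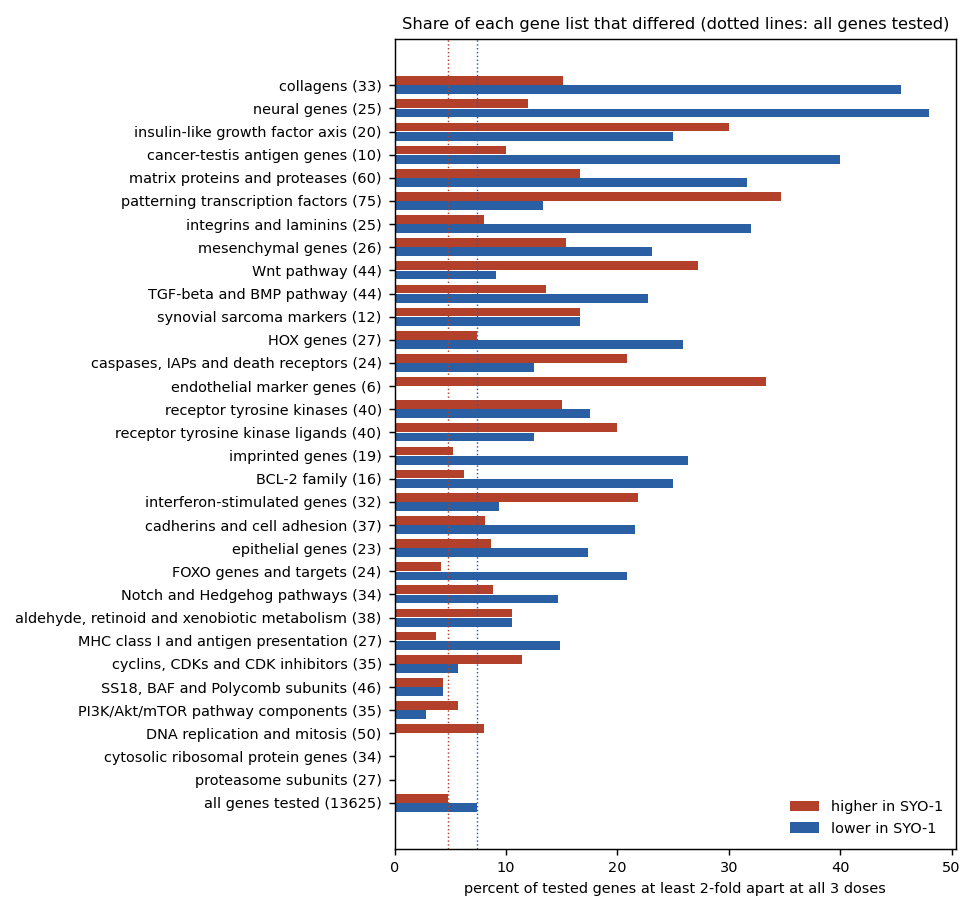
Percent of the tested genes of each list (number tested in brackets) that were at least 2-fold higher (red) or lower (blue) in SYO-1 at all 3 doses, for the lists shown, each with at least 6 tested genes, with the values of all 13625 genes (4.79% and 7.43%) as dotted lines. Neural genes and collagens had the longest bars on the lower side and patterning transcription factors on the higher side, while ribosomal protein and proteasome lists had none.

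Some lists differed more with drug than without it. For 50 DNA replication and mitosis genes the median difference was 0.461 at 0 µM, 1.67 at 0.3 µM and 1.40 at 3 µM. By the test 48 were higher and none lower in SYO-1, against 21.3% of all genes higher, yet only 4 were 2-fold apart at all 3 doses. The untreated pair set this limit: 4 of the 50 were 2-fold higher in SYO-1 at 0 µM, 42 at 0.3 µM and 38 at 3 µM. Without the untreated Fuji array 38 of the 50 were called, and without the untreated SYO-1 array 37. The median log2 signal of the list was 12.17, 11.98 and 11.52 in SYO-1, against 11.6, 10.2 and 9.75 in Fuji, so both lines were lower with drug and Fuji by more. MCM7, a subunit of the replicative helicase, had 6917, 5495 and 3093 in SYO-1, against 2516, 987 and 646 in Fuji (2.07 ± 0.18), and the origin licensing gene CDT1 had 2281, 2034 and 3738, against 757, 666 and 874 in Fuji. MKI67, the proliferation marker, named after its values were seen, had 2151, 1929 and 1298 in SYO-1, against 2067, 465 and 541 in Fuji.

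Cell-cycle regulators had the same tendency, with medians of 0.198, 0.784 and 0.894 over 35 genes. By the test 21 were higher and 5 lower, beside 21.3% higher and 22.6% lower over all genes. CCND2, a G1 cyclin, had 9020, 8760 and 8499 in SYO-1, against 3145, 1921 and 1218 in Fuji (2.17 ± 0.18). Its partner kinase CDK6 had 14695, 17063 and 16780 in SYO-1, against 2810, 4024 and 4291 in Fuji (2.15 ± 0.13). The retinoblastoma gene RB1, a brake on entry into S phase, was lower by 1.25 ± 0.12 on the log2 scale, and MYCN had 122, 118 and 96.2 in SYO-1, against 491, 1091 and 862 in Fuji.

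FOXO genes and their targets, which are switched on when PI3K and Akt are inhibited, ran the opposite way. Their median difference over 24 genes was -0.209 at 0 µM, -0.67 at 0.3 µM and -1.14 at 3 µM. By the test 15 were lower and 2 higher in SYO-1, beside 22.6% lower and 21.3% higher over all genes. SESN3, a stress-induced sestrin, had 234, 265 and 292 in SYO-1, against 3303, 5438 and 8573 in Fuji (-4.35 ± 0.23). YPEL3 had 16, 10.4 and 46.6 in SYO-1, against 199, 1057 and 2703 in Fuji, and the ubiquitin ligase gene FBXO32 had 39.0, 59.5 and 96.4, against 140, 496 and 1245 in Fuji (-2.86 ± 0.44). FOXO1 had 210, 262 and 356 in SYO-1, against 737, 1209 and 1420 in Fuji (-2.01 ± 0.24), whereas FOXO3 did not pass the test (-0.36 ± 0.18, adjusted p = 0.121). The interaction of line and dose was not tested, since each line and dose has 1 array.

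RNA integrity measures also moved with dose. Probe sets at the 3′ end of the β-actin control exceeded those at its 5′ end, as a log2 ratio, by 0.161, 0.221 and 0.282 in SYO-1, against 0.165, 0.388 and 0.753 in Fuji, and for GAPDH the ratio was -0.0940, -0.0160 and -0.0585 in SYO-1, against 0.0402, 0.0469 and 0.0720 in Fuji. The Fuji array at 3 µM had the highest β-actin ratio of the 12 arrays. Its part in the dose pattern was not tested. The median fitted line difference of the replication and mitosis list was 1.18 with all arrays and 1.03 without that array. For the FOXO list it was -0.666 and -0.64. These medians average over doses and do not show the part of that array in the dose pattern. Without it, the 2-fold rule covered only the 2 doses left, and the set came to 1923 genes. That 1641 of the 1665 genes stayed was thus largely fixed in advance. The array medians before normalization were 64.7, 72.1 and 76.3 in SYO-1, against 70.6, 73.6 and 71.0 in Fuji.

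The line difference was not spread evenly over chromosomes. On chromosome 8 the median over 488 genes was 0.529, and 71 genes were higher and 29 lower in SYO-1. On chromosome 7 it was 0.425 over 641 genes, with 50 higher and 18 lower, and only 24% of the genes had a difference below 0. Chromosome 13 and the X chromosome were shifted the other way. Over 244 genes of chromosome 13 the median was -0.481, with 12 higher and 36 lower, and over 454 genes of the X chromosome it was -0.478, with 6 higher and 90 lower. The medians of the other 19 chromosomes lay between -0.183 and 0.0896. The shifts were alike at the 3 doses: chromosome 8 had medians of 0.528, 0.508 and 0.55, and the X chromosome had -0.471, -0.526 and -0.466.

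In windows of 15 consecutive tested genes, the lowest median was -2.54, on the X chromosome between RPS6KA6 and TMEM35A, where 10 genes were lower and none higher in SYO-1. The window from VPS50 to DLX5 on chromosome 7 had the highest median of that chromosome, 1.29, with 7 genes higher and none lower. On chromosome 8 the window from PTDSS1 to VPS13B had a median of 1.24, and all 15 genes were above 0. Low windows also occurred on chromosomes 11 and 3, whose medians were 0.05 and -0.18, such as that from GPR83 to MAML2 on chromosome 11 (median -1.67, 8 lower) and that from ALCAM to ATG3 on chromosome 3 (-1.5, 8 lower). No window of chromosome 13 was among the 25 lowest. Several genes described above lie on the shifted chromosomes, among them TIMP1, IRS4, MAGEA4, CTAG2, BGN and TMSB4X on the X chromosome, RB1, SPRY2, COL4A1 and COL4A2 on chromosome 13, SDC2 and TNFRSF10D on chromosome 8, and CDK6, TWIST1 and DLX6 on chromosome 7. RUNX1T1, SFRP1, NEFM and NEFL, also on chromosome 8, were lower in SYO-1, against the shift. Windows overlap and share genes, so no test was made of them.

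**Figure D5:**
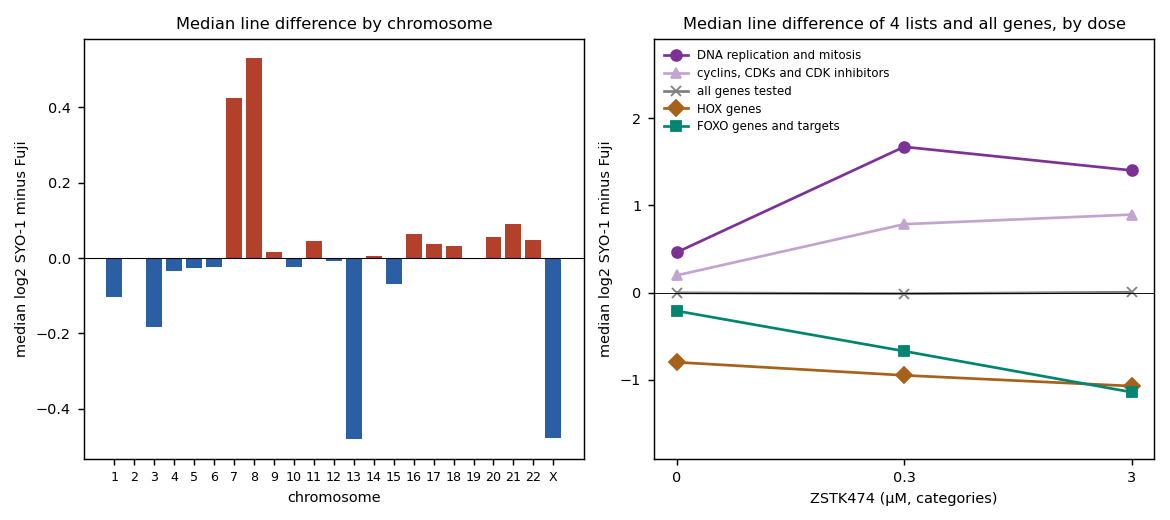
Left, median log2 difference (SYO-1 minus Fuji) of the tested genes on each chromosome, with red bars above 0 and blue bars below 0, where chromosomes 7 and 8 (0.425 and 0.529) and chromosomes 13 and X (-0.481 and -0.478) stand out. Right, median log2 difference of 4 gene lists and of all genes at 0, 0.3 and 3 µM (equally spaced), where the replication and mitosis list lies between 0.461 and 1.67 and the FOXO list between -1.14 and -0.209.

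The other 2 lines fell on one side of the pair for part of the genes. Of the 652 genes higher in SYO-1, the means of both Aska-SS and Yamato-SS were nearer to Fuji for 221 and nearer to SYO-1 for 165. Of the 1013 genes lower in SYO-1, they were nearer to Fuji for 301 and nearer to SYO-1 for 257. For the other 266 higher and 455 lower genes both lines did not fall on the same side. PRRX1 had untreated signals of 1771 in Aska-SS and 8626 in Yamato-SS, so Fuji had the lowest signal of the 4 lines. IFIH1, with 62.2 in Aska-SS and 5.36 in Yamato-SS, was below the table median without drug in every line but SYO-1. For COL6A3 the split ran within each fusion type, with untreated signals of 263 in Aska-SS and 25903 in Yamato-SS, and for CTAG2 with 16445 in Aska-SS and 7.22 in Yamato-SS. Among the 6 pairs of lines, SYO-1 and Fuji had the fewest genes 2-fold apart at all doses, close to the 1741 of Fuji and Aska-SS. Both SS18-SSX1 lines set against each other gave 2844 such genes (20.9%), and the 4 mixed pairs gave 1741 to 2352. These counts share arrays with one another.

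The set has a hard limit at 2-fold, and its edge is arbitrary. LMO7 and RAC3 were just inside it, with log2 differences of 1.25 and 1.12 at 0 µM and, at 1 other dose each, values just past the limit. AJAP1, just outside, had 1.96, 1.95 and 0.999 at the 3 doses. Of 837 genes in the set with 2 or more probe sets, 789 had all of them on one side. The probe set by which each gene was called counts among them. The share over all genes tested is not given, so this is a description only.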

How the data were processed

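RNA of 4 synovial sarcoma lines at 3 doses was hybridised to Affymetrix U133 Plus 2.0 arrays, 1 per line and dose. The authors deposited MAS5 signal intensity on a linear scale for 54675 probe sets, each array scaled to a trimmed mean near 500.1. The study's methods name quantile normalization, which the deposited columns do not show, so it was applied here over the 12 arrays. Signals below the 20th percentile (12.1) were raised to it and log2 transformed. Of the probe sets, 62 controls, 1801 with several gene symbols and 11721 unnamed ones were left out. The brightest probe set of each gene above the table median (71.2) in at least 3 of 12 arrays was kept, 13625 genes. Line and dose were fitted with limma 3.58.1 in R 4.3.3 (6 residual and a median of 5.7 prior degrees of freedom, trended prior), and p-values were adjusted by Benjamini-Hochberg over all genes. The script was tested on simulated data.

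Named were the 12 largest measured differences and the 8 brightest genes of one line alone in each direction, up to 8 genes of each of 33 lists by smallest adjusted p, and apoptosis, FOXO and IGF1R genes of the study. The members and lists were chosen with earlier results of these data known. Gene symbols are those of the platform annotation, and chromosomes and gene order are from RefSeq. Replicate numbers stand for dose within a line, which pairs the arrays by design: the correlation of deviations was 0.414, 0.0449 and 0.448 for 0, 0.3 and 3 µM.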

Additional observations from a re-analysis of the deposited data

Results flagged for a closer look

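In 3 genes above the table median on all 6 arrays, the line difference had opposite signs and at least 2-fold size at 0 and 3 µM; each dose has 1 array per line, so the change was not tested. TICAM1, an adaptor of Toll-like receptors, differed by -1.37 at 0 µM and by 1.27 at 3 µM (log2, SYO-1 minus Fuji), with signals of 87.1, 255 and 242 in SYO-1, against 225, 212 and 100 in Fuji. SLC5A5, the sodium iodide symporter, differed by -1.34 and 1.19, with 95.6, 111 and 229 in SYO-1, against 242, 268 and 101 in Fuji. CACNA1G-AS1, an antisense transcript, differed by -1.23 and 1.11, with 155, 252 and 237 in SYO-1, against 365, 327 and 109 in Fuji. All 3 have low signals, and 76 genes in all had such opposite differences, 31 from higher to lower in SYO-1 and 45 from lower to higher. The 3 genes are named only here, after their values were seen.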

How the results depend on the processing

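Across the 19 alternatives tried, no call of the 222 genes named by rule changed direction. Genes named with their values known, such as NKD2, NOTUM, COL26A1, IGFBP3 and MKI67, are not among the 222. The count of 1665 genes at least 2-fold apart at all doses lay between 1386 and 1751 when normalization, floor, filter or probe set rule was changed, and 1388 with the floor at the table median, a choice made after seeing the data. Testing against a 2-fold limit (limma treat) left 1135 genes past the test, 445 higher and 690 lower, since it asks for more than 2-fold, and 33 of the named calls were lost, among them HOXB6, HOXB7, HOXB8, MEG3 and CD99. Without the dose term, that is with no replicate block for the pairing by dose, 3798 genes passed, 1688 higher and 2110 lower, against 5976 with it, and 1631 of the 1665 stayed; BMF, IRS2 and PMAIP1 lost their calls. Leaving out 1 array gave 4751 to 5864 genes past the test (2259 to 2832 higher, 2492 to 3032 lower) and, over the 2 doses then left, 1767 to 2220 genes 2-fold apart (703 to 979 higher, 1055 to 1249 lower); without the untreated Fuji array the higher genes came to 979, against 652. BAX, BIK and HRK, near the threshold, lost their calls in several of these fits. With 1 array per line and dose, the spread between cultures is unknown, and signals below the table median limit the folds.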
